A study of Mus musculus with 6 samples.

Results

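Semaphorins, their plexin receptors and the neuropilin co-receptors were compared between mouse URE cells carrying a short hairpin against Hlx and URE cells carrying a control hairpin. The members were taken by name: every gene with a probe set of its own called Sema3 to Sema7 with a letter, Plxna to Plxnd with a number, or Nrp1 or Nrp2. This gave 31 genes, 20 semaphorins, 9 plexins and 2 neuropilins, among 19938 genes measured. The naming rule uses no measured value, although the family was picked with earlier results of these arrays known. URE is a mouse leukaemia line, understood to come from mice that lack an upstream element controlling Spi1, the gene of the myeloid transcription factor PU.1, a background that both groups share. The cells were grown with conditioned media and infected with a lentivirus that also encodes a green fluorescent protein. The control hairpin targets luciferase (shControl, 3 arrays) and the other targets Hlx, a homeobox transcription factor gene (shHLX, 3 arrays). After sorting for fluorescence and some days of culture, cDNA was amplified from 10 ng of RNA and hybridised to Affymetrix arrays, so both groups had been transduced and sorted alike. The labels do not say how many hairpin sequences were used or whether replicates came from separate transductions. The p-values therefore reflect the spread among these arrays alone, part or all of which may be technical.

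Semaphorins are secreted, membrane-spanning or lipid-anchored proteins first known for steering growing axons, and they also guide the movement and contacts of immune and endothelial cells. Most signal through plexins, whose inner part switches off small GTPases of the Ras and Rap type and so loosens integrin adhesion and the actin skeleton. Secreted class 3 semaphorins mostly need a neuropilin to hold them on a plexin, and neuropilins also bind vascular endothelial growth factors. In blood cells, neuropilin 1 is best known from plasmacytoid dendritic cells and regulatory T cells.

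Of the 31 genes, 6 passed the test (limma, adjusted p under 0.05 over all genes tested), 3 higher and 3 lower on the shHLX arrays. The large changes were 2 rises: Nrp1 rose 3.94-fold and Sema3c, a secreted semaphorin that binds neuropilins, rose 2.71-fold. Plxnc1, the plexin that receives semaphorin 7A, rose 1.26-fold. The falls were small, at 0.24 on the log2 scale for Sema4a, 0.21 for Nrp2 and 0.20 for Sema6b. Over all genes tested 6.18% passed, 3.75% upwards and 2.43% downwards, against 19.4% of these members. The median difference of the members was -0.02 on the log2 scale, beside -0.01 over all genes. Signals at least 2-fold apart were seen for 2 members and for 0.391% of all genes. Of the 25 members that did not pass, differences ran from -0.19 to 0.10, and their 95% confidence intervals together spanned -0.34 to 0.28.

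**Figure D1:**
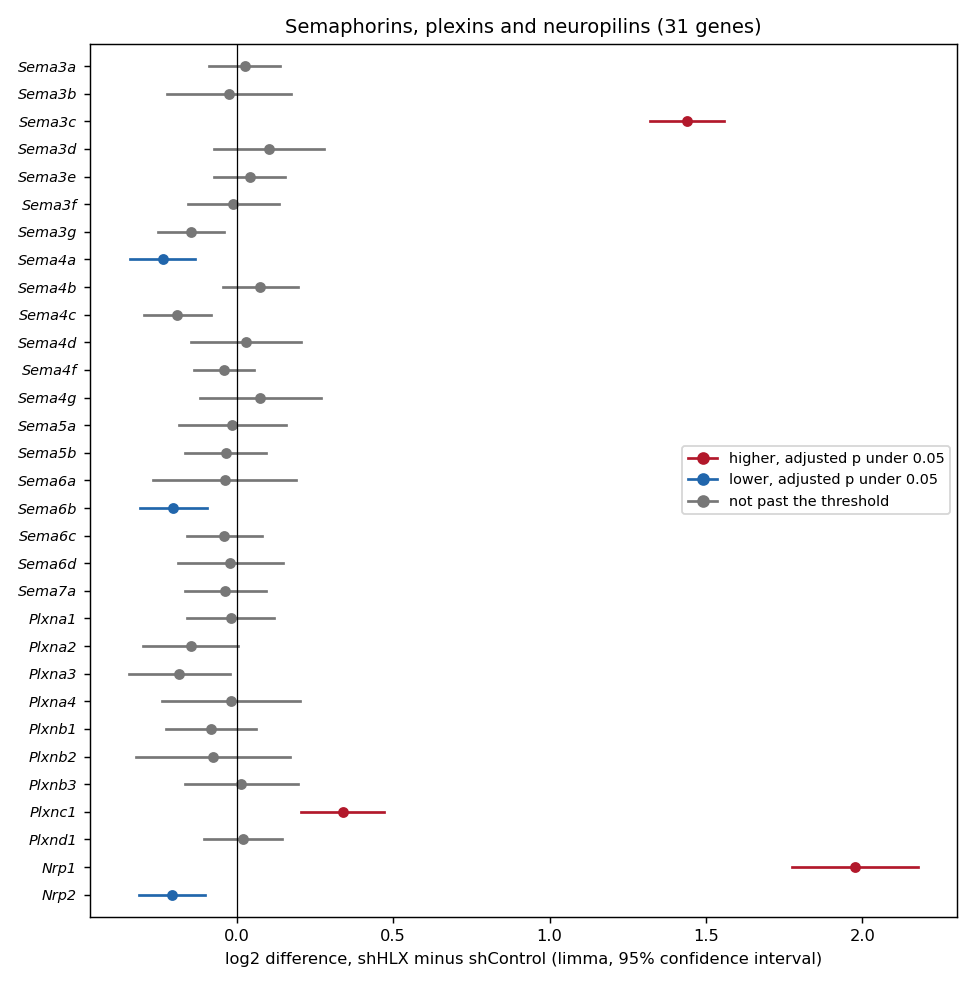
Difference of the mean log2 signal (shHLX minus shControl, horizontal axis) for each of the 31 members, with limma's 95% confidence interval, in red where higher, in blue where lower and in grey where the adjusted p missed 0.05. Nrp1 (1.98) and Sema3c (1.44) stand far to the right, Plxnc1 follows at 0.34, and every other member lies between -0.24 and 0.10.

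Median log2 signals of the 6 arrays lay between 7.02 and 7.10. The first principal component (59.4% of the variance) set the groups apart, with shControl arrays at -13.9 to -10.4 and shHLX arrays at 10.1 to 16.4. On the second principal component (18.1% of the variance) 1 array of each group, shControl 1 and shHLX 3, stood away from the remaining 4. The labels name no batch. Hlx itself differed by -0.07 between the groups (exact two-sided permutation p = 0.2, where 0.1 is the smallest p possible, and limma adjusted p = 0.479). Its groups overlapped, so a lowered Hlx level was not seen and the direction of each difference rests on the labels. Of 10 markers of myeloid progenitors, the protease genes Elane, Prtn3 and Ctsg gave log2 signals between 13.53 and 14.04 on all arrays, while Ms4a3 (-3.45), Mpo (-1.46) and Kit (-0.73) were lower on the shHLX arrays. The summed linear signal of this list was 53800 to 55100 on the shControl arrays and 49900 to 50000 on the shHLX arrays, and its mean log2 signal 11.2 to 11.3 and 10.6 to 10.7. The 7 markers of the list that did not pass, the protease genes among them, ran from -0.10 to 0.03. The part of these markers in the members' results was not tested. Which of the dim members lie above background is unknown, as no detection calls were used. With no filter on dim signal all 31 entered the test, 26 lay above the 25th percentile of mean signal and 10 above the median.

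The neuropilins moved in opposite directions. Nrp1, a co-receptor for class 3 semaphorins and vascular endothelial growth factor, gave log2 signals of 7.73, 7.41 and 7.42 on the shControl arrays and 9.52, 9.47 and 9.51 on the shHLX arrays. All shHLX arrays were far above all control arrays, and among the controls shControl 1 was the highest. The means were 7.52 ± 0.18 (SD, n = 3) and 9.50 ± 0.028 (SD, n = 3), so Nrp1 rose 3.94-fold with a 95% confidence interval of 3.42 to 4.52 (adjusted p = 1.34e-05 by limma). Leaving out any single array kept the call, at an adjusted p of 0.000341 or less. Over all settings the log2 difference stayed between 1.92 and 2.08.

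Nrp2, which also binds class 3 semaphorins and prefers another set of them and vascular endothelial growth factor C, gave 11.56, 11.56 and 11.52 on the shControl arrays and 11.29, 11.33 and 11.40 on the shHLX arrays. Every shHLX value lay below every control value, though by little. Its mean fell by 0.21 on the log2 scale (95% confidence interval -0.31 to -0.10, limma adjusted p = 0.0399), from 11.55 ± 0.025 (SD, n = 3) to 11.34 ± 0.053 (SD, n = 3). This call held only without shHLX 3 when single arrays were left out, and the adjusted p reached 0.136. It also ended when arrays were centred on their medians and when all probe sets were tested. The Nrp1 difference exceeded the Nrp2 difference by 2.18 on the log2 scale within arrays. Its exact two-sided permutation p was 0.1, the smallest possible with 3 arrays against 3. Opposite moves without overlap in each gene fixed that p beforehand, so it is no further support.

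**Figure D2:**
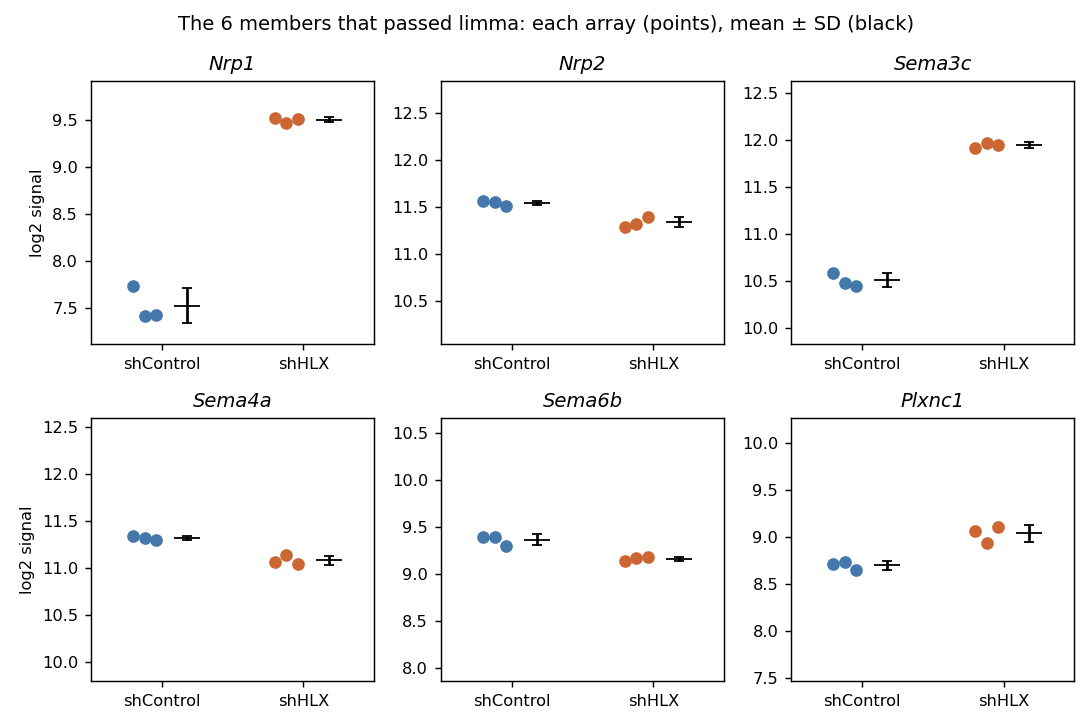
Log2 signal (vertical axis, the same span in each panel) of the 6 members that passed, for each shControl array (blue) and shHLX array (orange), with the mean ± SD (n = 3) in black beside the points. The groups are far apart for Nrp1 (means 7.52 and 9.50) and Sema3c (10.51 and 11.95), and close together without overlap for the other 4 genes.

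Neuropilins are often found on endothelial cells. Of 12 endothelial markers, 9 had negative differences and the median was -0.10 on the log2 scale. Among them, Pecam1 was higher (1.87 on the log2 scale) and Cdh5 lower (-2.68), and 10 did not pass, among them Kdr, the partner receptor of neuropilin 1 (-0.11), Tek (-0.02) and Emcn (0.10). The summed linear signal of this list was 2630 to 2770 on the shControl arrays and 4010 to 4150 on the shHLX arrays, a sum in which Pecam1 (mean log2 signal 9.63 and 11.50) weighs heavily. The mean log2 signal of the list went the other way, from 7.13 to 7.19 on the shControl arrays to 6.98 to 7.08 on the shHLX arrays. The part of these markers in the Nrp1 result was not tested. Of 11 macrophage and dendritic cell markers, Flt3 was higher (0.65), and the other 10 ran from -0.20 to 0.07. The summed signal of that list was 1340 to 1400 and 1380 to 1460. None of 8 lymphoid or 5 erythroid and megakaryocyte markers passed limma. At an unadjusted p under 0.05 there were 1 and 1, beside 3861 of all 19938 genes. Summed signals of the lymphoid markers were 670 to 746 on the shControl arrays and 616 to 705 on the shHLX arrays. Those of the erythroid and megakaryocyte markers were 668 to 689 and 619 to 667. Acta2 (0.92) was the called member of 8 stromal markers, whose summed signal was 1560 to 1700 on the shControl arrays and 2120 to 2410 on the shHLX arrays. The other 7 stromal markers ran from -0.10 to 0.07, and the list's mean log2 signal overlapped between the groups (6.85 to 6.97 and 6.89 to 7.06). In such bulk samples, fewer cells of a type and less RNA per cell cannot be told apart.

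Among the 7 class 3 semaphorins, Sema3c was the called member. Semaphorin 3C is secreted, binds both neuropilins and signals through plexins of the A group and plexin D1. Its signals were 10.59, 10.49 and 10.45 for shControl and 11.92, 11.98 and 11.95 for shHLX. The groups were far apart and each was tight. The mean went from 10.51 ± 0.073 (SD, n = 3) to 11.95 ± 0.027 (SD, n = 3), so Sema3c rose 2.71-fold with a 95% confidence interval of 2.50 to 2.94 (adjusted p = 3.94e-06 by limma). Without any single array the log2 difference was 1.41 to 1.48, and the highest adjusted p was 0.000119.

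The other class 3 genes encode secreted proteins of the same build. Sema3a, best known as a repellent of axons through neuropilin 1, differed by 0.03 (95% confidence interval -0.09 to 0.14), and Sema3e, which can bind plexin D1 without a neuropilin, by 0.04 (-0.07 to 0.15). Sema3b (-0.03), Sema3d (0.10) and Sema3f (-0.01), the last a ligand that prefers neuropilin 2, did not pass either, and their groups overlapped. Sema3g had groups that did not overlap, with 7.28, 7.33 and 7.36 against 7.17, 7.22 and 7.14. Its difference of -0.15 did not pass limma (adjusted p = 0.123). Groups without overlap were common on these arrays, at 26.2% of all genes (14.7% higher and 11.4% lower), and 10 of the 31 members had them, 3 higher and 7 lower.

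The promoters of the 3 genes that rose are shown with that of Nrp2, the other neuropilin gene, and those of Sema4a and Sema6b, which have several start sites each, are described after them. They are the 250 bases before the RefSeq transcription start on mouse GRCm38.p6, read 5′ to 3′ on the gene's own strand. Capitals mark GAGGAA on either strand, a core of sites bound by PU.1, the factor altered in this line. The other motif searched was TAATTA, also on both strands, which holds the TAAT core bound by many homeodomain proteins and does not overlap the first.
Nrp1, chr8:128358823-128359072, plus strand: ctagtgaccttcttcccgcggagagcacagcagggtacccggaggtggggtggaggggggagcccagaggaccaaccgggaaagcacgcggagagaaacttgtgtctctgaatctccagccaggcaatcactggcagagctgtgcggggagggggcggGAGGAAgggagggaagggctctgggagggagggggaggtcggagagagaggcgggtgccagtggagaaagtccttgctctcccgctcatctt
Sema3c, chr5:17574566-17574815, plus strand: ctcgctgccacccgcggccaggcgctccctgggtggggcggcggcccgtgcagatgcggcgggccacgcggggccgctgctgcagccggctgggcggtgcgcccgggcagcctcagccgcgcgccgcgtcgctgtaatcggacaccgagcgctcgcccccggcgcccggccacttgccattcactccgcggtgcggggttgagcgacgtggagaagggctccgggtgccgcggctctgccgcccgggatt
Plxnc1, chr10:94944846-94945095, minus strand: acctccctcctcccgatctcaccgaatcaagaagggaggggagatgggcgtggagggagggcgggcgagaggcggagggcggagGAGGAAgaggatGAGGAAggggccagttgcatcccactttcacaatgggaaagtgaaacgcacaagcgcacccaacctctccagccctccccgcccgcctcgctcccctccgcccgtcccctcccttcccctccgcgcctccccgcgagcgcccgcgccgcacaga
Nrp2, chr1:62703067-62703316, plus strand: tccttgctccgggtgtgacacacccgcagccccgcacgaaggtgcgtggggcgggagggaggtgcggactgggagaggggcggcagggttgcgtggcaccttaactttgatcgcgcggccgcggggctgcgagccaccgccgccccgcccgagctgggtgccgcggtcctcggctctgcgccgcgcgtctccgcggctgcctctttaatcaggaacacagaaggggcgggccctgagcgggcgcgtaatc

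TAATTA was in 0 of these 4 windows and in 0 of 37 promoter entries of the 26 members listed, against 4.84% of all 32851 promoters of this length. The GC share was 64.4% to 78.4% in these 4 windows, beside a median of 52.4% over all promoters. TAATTA holds A and T alone, and the part of base composition in its absence was not tested. GAGGAA was in 12 of the 37 and in 23.3% of all promoters. It lay 92 bases before the start of Nrp1, and 166 and 154 bases before that of Plxnc1, counted from the base of the match farthest from the start, while the Sema3c and Nrp2 windows hold none. Genes that fell held it too: among 4 windows of Sema4a, 1 had matches 229 and 162 bases before its start and 1 had a match at 77, and among 2 windows of Sema6b 1 had a match at 15. These matches describe letters only and say nothing of binding. The Sema3c window is rich in CpG, with 39 in 250 bases and a GC share of 78.4%, beside 32 CpG for Nrp2, 22 for Plxnc1 and 11 for Nrp1, and a median of 6 over all promoters. Promoter entries for Sema3b, Sema3f, Sema6a, Plxna1 and Plxna4 were not used here.

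Sema3c lies in a stretch of mouse chromosome 5 that also carries Sema3d, Sema3a and Sema3e, by gene order in the RefSeq table of GRCm38.p6. These semaphorin genes stand 7, 6 and 4 measured genes before Sema3c, and none of the 3 passed limma. Of the 3, 0 had an unadjusted p under 0.05, beside 3861 of all 19938 genes. The measured gene just before Sema3c is Hgf, which encodes the growth factor that binds the receptor Met and which rose 13.2-fold (limma adjusted p = 2.66e-07). On the other side the nearest measured gene, the scavenger receptor gene Cd36, differed by 0.02. Of the 20 nearest measured genes, 10 on each side, 2 passed limma, Hgf and Gsap (1.30-fold), both higher. Over all genes 3.75% were called higher and 2.43% lower.

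The surroundings of Plxnc1 on chromosome 10 held more genes that rose than those of any other called member. Of its 20 nearest measured neighbours 6 passed limma, all higher, beside 3.75% of all genes called higher. The median difference of the 20 was 0.06. They were Vezt (1.17-fold), Fgd6 (1.81-fold), Nr2c1 (1.22-fold), the cytokine signalling inhibitor gene Socs2 (1.28-fold), Eea1 (1.21-fold) and Btg1, an antiproliferative gene (1.84-fold). These neighbours were looked at after their values were known, and genes at a locus are not independent of each other. Around Nrp1, 1 of 12 neighbours was higher (Tarbp1) and 1 lower (Map3k21), and the adjacent measured gene Itgb1 differed by 0.15 without passing. Of 20 neighbours each, Nrp2 had 1 higher and 1 lower, Sema4a had 2 lower and Sema6b 1 lower, beside 2.43% of all genes called lower.

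**Figure D3:**
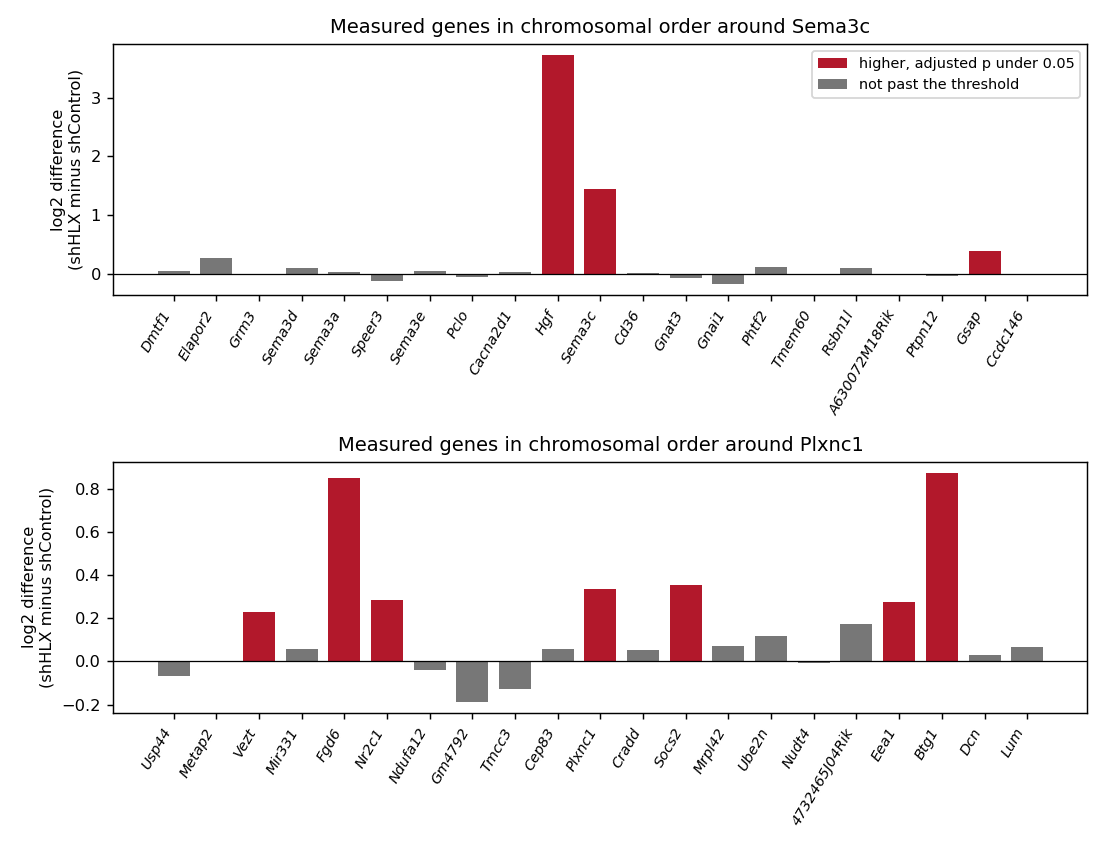
Difference of the mean log2 signal (shHLX minus shControl, vertical axis) of the 20 measured genes nearest to Sema3c (top) and Plxnc1 (bottom), in chromosomal order with the member in the middle; red bars passed limma at an adjusted p under 0.05 and grey bars did not. Hgf (3.72) stands beside Sema3c with the other semaphorin genes near 0, and 6 neighbours of Plxnc1 are red.

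Class 4 semaphorins are membrane proteins, several of them with roles on immune cells, and 1 of 6 passed. Sema4a, which binds plexins of the B group and plexin D1 and stimulates T cells, gave 11.34, 11.32 and 11.29 for shControl and 11.07, 11.14 and 11.04 for shHLX. The groups did not overlap. The mean fell by 0.24 on the log2 scale (95% confidence interval -0.34 to -0.13, limma adjusted p = 0.0213), from 11.32 ± 0.0225 (SD, n = 3) to 11.08 ± 0.049 (SD, n = 3). When single arrays were left out it passed only without shHLX 2, with adjusted p up to 0.0839.

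Sema4c, a ligand of plexin B2, came close, with 7.78, 7.77 and 7.74 against 7.52, 7.64 and 7.56. Its difference of -0.19 (limma adjusted p = 0.0564) missed the threshold, although the groups did not overlap. A second quantile normalization (adjusted p = 0.0492), array weights (0.0304) and filters on dim signal (0.0314 and 0.0104) took it past. Sema4d, the CD100 antigen of T cells and a ligand of plexin B1 and CD72, differed by 0.03 at its brighter probe set and by -0.14 at the other, neither past the threshold. Sema4b (0.08) and Sema4g (0.07) had overlapping groups. Sema4f differed by -0.04 (adjusted p = 0.642), and its control arrays, at 6.70 each, lay just above the shHLX values of 6.62, 6.69 and 6.67.

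Of the transmembrane classes 5 and 6, Sema6b passed among 6 genes. Sema6b, whose protein binds plexins of the A group, gave 9.40, 9.40 and 9.30 against 9.14, 9.17 and 9.18, with no overlap. It fell by 0.20 on the log2 scale (95% confidence interval -0.31 to -0.10, limma adjusted p = 0.0436), from 9.36 ± 0.0565 (SD, n = 3) to 9.16 ± 0.021 (SD, n = 3). The call was lost whichever single array was left out (adjusted p 0.0658 to 0.143). Its 2 probe sets hold the same values on every array, so they are no second measurement. Sema5a (-0.01), Sema5b (-0.04), Sema6a (-0.04), Sema6c (-0.04) and Sema6d (-0.02) did not pass and their groups overlapped. Sema7a, which encodes the lipid-anchored ligand of plexin C1 and of integrin beta 1, differed by -0.04 (95% confidence interval -0.17 to 0.09).

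Of the 9 plexins, Plxnc1 was the called gene. Its signals were 8.72, 8.74 and 8.65 on the shControl arrays and 9.07, 8.94 and 9.11 on the shHLX arrays, and the groups did not overlap. The means were 8.70 ± 0.049 (SD, n = 3) and 9.04 ± 0.089 (SD, n = 3), so Plxnc1 rose 1.26-fold (95% confidence interval 1.15 to 1.39, adjusted p = 0.0123 by limma). The call was lost without shControl 3 or shHLX 1 (adjusted p up to 0.0655), and also without both arrays that stand apart on the second principal component (0.0681).

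None of the plexins through which semaphorin 3C is known to signal passed the test. Plxnd1 gave 11.67, 11.83 and 11.78 against 11.75, 11.76 and 11.83, a difference of 0.02 with a 95% confidence interval for the fold of 0.931 to 1.11. In the A group, which works with neuropilins, Plxna1 differed by -0.02, Plxna4 by -0.02, Plxna2 by -0.15 and Plxna3 by -0.18. Plxna3 had an interval of -0.34 to -0.02 and an adjusted p of 0.200 by limma, and shHLX 1 (7.17) lay above the lowest control value (7.16). The Plxna2 groups did not overlap, at 6.36, 6.42 and 6.36 against 6.26, 6.34 and 6.10, but its adjusted p by limma was 0.275. The B group, receptors of class 4 semaphorins, gave -0.08 for Plxnb1, -0.08 for Plxnb2 and 0.01 for Plxnb3, with overlapping groups.

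Plxnb2 had the widest spread of all members among the shHLX arrays, at 6.24, 5.97 and 5.79 (SD 0.23) against control values of 6.05, 6.14 and 6.04. The median SD within groups over all genes was 0.0728.

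**Figure D4:**
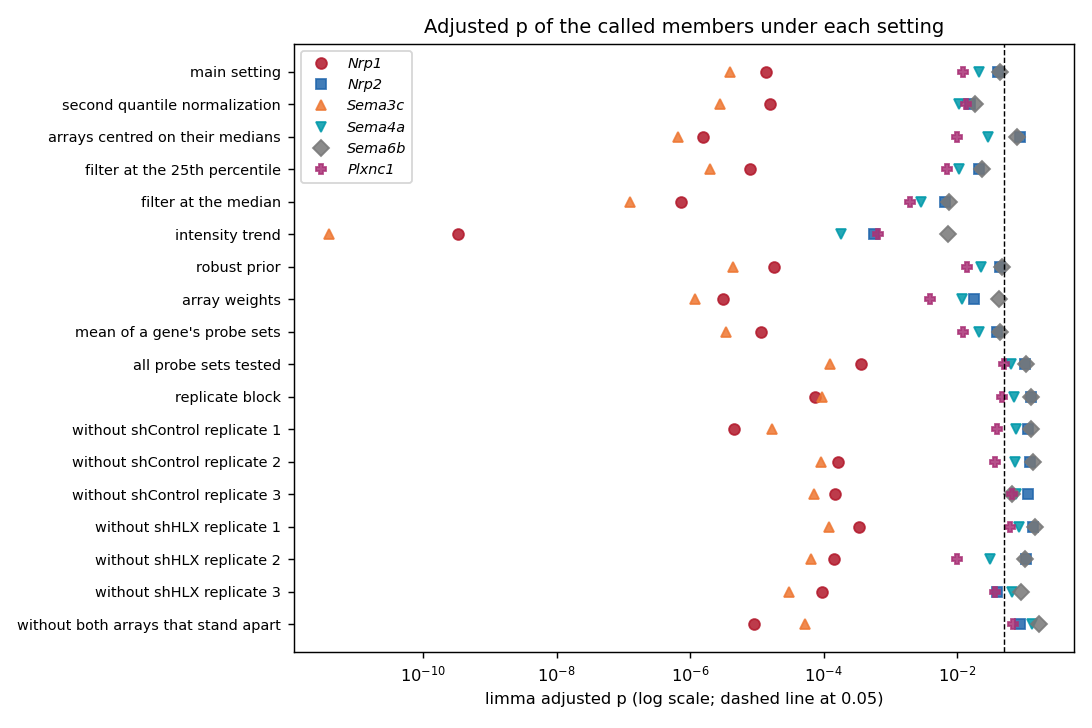
Adjusted p of limma (horizontal axis, log scale, dashed line at 0.05) for the 6 called members under the main setting and each alternative that changes the fit. Nrp1 and Sema3c stay at or below 0.000358 in every row, while Nrp2, Sema4a, Sema6b and Plxnc1 cross the line in several rows.

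Without single arrays the 3 higher members became 2 without shControl 3 or shHLX 1, with Nrp1 and Sema3c called each time. The 3 lower members became 0 without shControl 1, shControl 2, shControl 3 or shHLX 1. Only Sema4a was called lower without shHLX 2, and only Nrp2 without shHLX 3. The direction of all 6 held in every setting run.

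Of 71 other genes of semaphorin signalling, 68 were measured, and by limma 7 were higher and 0 lower on the shHLX arrays. The 7 are 10.3% of the list, beside 3.75% of all genes called higher and 2.43% called lower. The median difference of this list was 0.003 on the log2 scale, and at an unadjusted p under 0.05 it held 13 higher and 7 lower. At that unadjusted p, 2146 of all 19938 genes were higher and 1715 lower. The 7 were the Src-family kinase gene Fyn, which acts below neuropilin 1 and plexin A in nerve cells, Met, a partner of plexin B1, the adaptor gene Dpysl2, 3 genes that regulate small GTPases (Arhgef11, Arhgap35 and Tiam1), and Cd72, which encodes a receptor of semaphorin 4D on B cells.

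Fyn gave 6.51, 6.62 and 6.40 for shControl and 7.26, 7.34 and 7.21 for shHLX, with no overlap. Fyn rose 1.69-fold (95% confidence interval 1.52 to 1.88, adjusted p = 0.000447 by limma). Met rose 1.42-fold (1.27 to 1.60), from 6.79, 6.70 and 6.75 to 7.13, 7.24 and 7.40. Met is the receptor of the product of Hgf, the neighbour of Sema3c. Of the other co-receptors, Cd72 rose 1.25-fold (1.15 to 1.36), and Itgb1 (0.15) and Itga1 (0.23), partners in the receptor of semaphorin 7A, did not pass. The mean signals of Fyn, Met and Cd72 lay below the median of all genes, so the filter at the median left these genes out. Flt1, a receptor of vascular endothelial growth factor, differed by -0.19 (adjusted p = 0.0708 by limma).

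Dpysl2, which encodes CRMP2, the protein that carries the semaphorin 3A signal to microtubules, rose 1.31-fold (1.19 to 1.44), from 10.34, 10.40 and 10.21 to 10.66, 10.74 and 10.72. Its relatives Crmp1 (-0.10), Dpysl3 (-0.05), Dpysl4 (0.04) and Dpysl5 (0.08) had overlapping groups. Arhgef11, whose product docks on plexins of the B group, rose 1.31-fold (1.21 to 1.41), from 9.71, 9.78 and 9.66 to 10.13, 10.09 and 10.09. Tiam1, which encodes a Rac activator, and Arhgap35 each rose 1.17-fold. The calls of Tiam1 and Arhgap35 were not kept when single arrays were left out. Fewer genes passed in each such fit, 698 to 901 over all genes against 1233. Tiam1 was lost whichever array was left out (adjusted p 0.0518 to 0.118), and Arhgap35 in all but the fit without shControl 1 (up to 0.0911). Fyn, Met, Cd72, Dpysl2 and Arhgef11 passed in each of these 6 fits.

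Among the GTPases themselves the difference was 0.03 for Rac1, -0.03 for Rras and 0.06 for Rap1b, with overlapping groups. Rnd1, a GTPase that binds plexins, differed by 0.18 (adjusted p = 0.061 by limma) and Rac2, the Rac of blood cells, by -0.14 (0.189), both without overlap and without passing. None of the 6 neuropilin ligand genes outside the semaphorins passed limma, with 2 at an unadjusted p under 0.05, Vegfa (-0.14) and Vegfb (-0.16). Neither did any of 6 genes of the proteases that cut semaphorins, with 2 at an unadjusted p under 0.05. These were Furin (0.15), which activates class 3 semaphorins, and Adam17 (0.15). Over all 19938 genes, 3861 had an unadjusted p under 0.05.

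**Figure D5:**
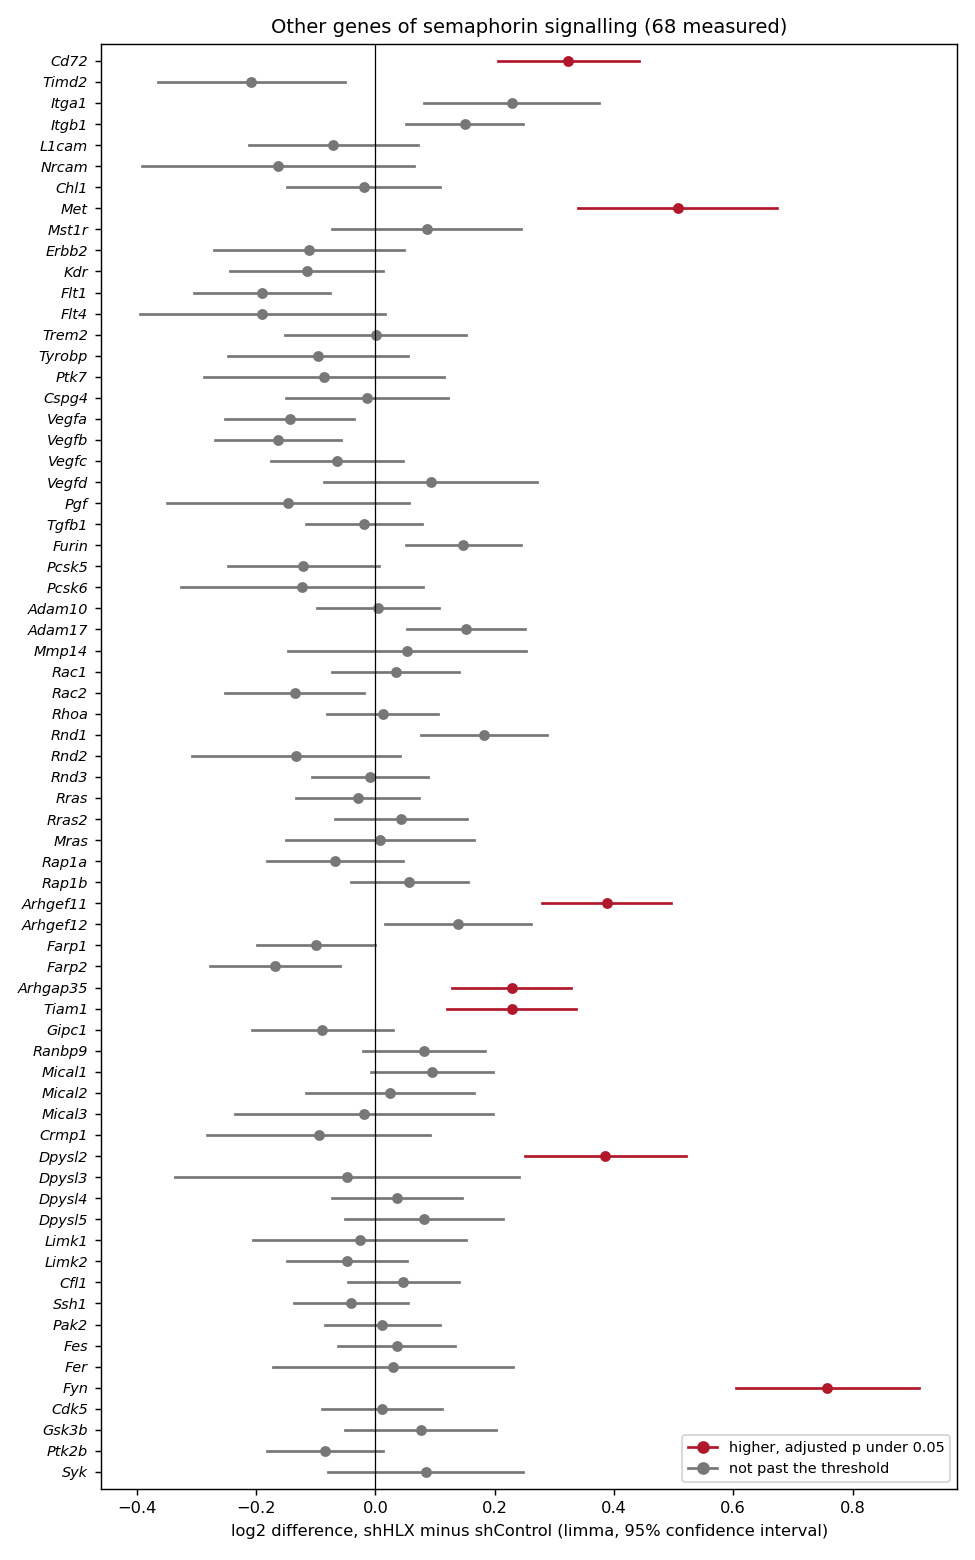
Difference of the mean log2 signal (shHLX minus shControl, horizontal axis) with limma's 95% confidence interval for 68 other genes of semaphorin signalling, ordered from co-receptors at the top through ligands, proteases and GTPase regulators to kinases at the bottom; red marks an adjusted p under 0.05. The 7 red genes all lie to the right, from Arhgap35 (0.23) to Fyn (0.76).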

How the data were processed

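Log2 signals of 35556 probe sets on 6 arrays were used as deposited. Per the submitters' processing notes the authors used RMA, which corrects background, equalises arrays and summarises probes, and Affymetrix Power Tools 1.178. Their genome build was not given in the sources used here. GEO's platform table gave a single symbol to 21789 probe sets and more to 1621, and did not list 12146. The brightest single-symbol probe set by mean over the arrays was kept per gene (19938 genes, no filter). All 31 members matched RefSeq by Entrez identifier.

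The comparison used limma's lmFit and eBayes (version 3.58.1, under R 4.3.3), two-sided and without covariates, with Benjamini-Hochberg adjustment over all genes at 0.05. Folds are the antilog of the difference in mean log2 signal. The code was tested on simulated data. Called members, members whose groups did not overlap and called genes of the signalling list were named. The members, the lists and the alternatives were chosen with earlier results of these arrays known, so their counts are descriptions. The number of arrays limits the precision. Alternatives changed the normalization, the filter, the variance model, the probe sets, the threshold and the arrays used. The figures come from matplotlib 3.10.9 (Python 3.11.15).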

Additional observations from a re-analysis of the deposited data

How the results depend on the processing

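The calls of Nrp1 and Sema3c held in all 19 alternatives, and 26 of the 31 members never changed their side of the threshold in those that tested them, since the filters drop dim genes. The count of members called higher was 2 or 3 throughout. The 3 called lower became 1 with arrays centred on their medians and 0 with all probe sets tested, with a fold of at least 1.5, with the replicate block, and without both shControl 1 and shHLX 3, an alternative chosen after seeing the data. The count became 4, with Sema4c added, after a second quantile normalization and with either filter on dim signal. It was also 4 with array weights and at an adjusted p under 0.10. When single arrays were left out it was 0 to 1, and over all genes 257 to 369 were then called lower, against 485. Same-numbered arrays did not deviate together (correlations of -0.17, 0.129 and -0.152), and no array correlated best with its own number, so the fit was not paired. The replicate block called 3 members higher, 0 lower and 800 genes in all, against 1233.

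The 7 pathway genes called higher became 8 with the filter at the 25th percentile and 9 with the filter at the median. The filter at the median drops Fyn, Met and Cd72, so those 9 are a different set. The count was 10 with array weights and 12 when the prior variance followed intensity. It was 12 at an adjusted p under 0.10, 1 with a fold of at least 1.5, and 5 to 6 when single arrays were left out. The 0 called lower became 1 after a second quantile normalization, 1 with the filter at the 25th percentile, 3 with the filter at the median, 4 with that trend, 1 with array weights and 3 at an adjusted p under 0.10. Hlx was not called in any alternative. Without background values, a fold of a dim gene may understate the change in RNA, and the cause of the lost calls was not tested.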
